A study of Mus musculus with 12 samples.

Results

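DNA replication and S-phase genes were followed across 4 groups of mouse CD8 T cells. The set was a list of 45 genes that copy DNA or prepare a cell to copy it, chosen with earlier results of these data known. A gene was taken from a probe set with exactly 1 gene symbol in the platform annotation, and from the probe set with the highest mean where it had several. By this rule 43 of the 45 were measured, out of 22180 genes in all. Rfc4, a clamp-loader subunit, and Ccne2, a cyclin E, stood only on probe sets that also named a neighbouring gene and were not used. The 43 were the origin licensing and helicase genes (16), the genes of the clamp, clamp loader, polymerases and primase (13), the genes of nucleotide supply and strand joining (8), the chromatin assembly genes (3) and the S-phase entry genes (3). All 43 passed the filter on dim genes, with every one of their 4 group means above it.

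The study asked, by its title, how gene expression differed between WT and STAT3-/- Tc17 cells, with Tc1 cells beside them. The STAT3-/- cells were Cd4cre+ STAT3fl/fl, so the floxed gene was removed by a Cre under the Cd4 promoter, which acts in T cells during thymic development. Splenic naive CD8 T cells were sorted from mice of each genotype, mixed in equal parts and stimulated with anti-CD3 (1 µg/ml) and anti-CD28 (3 µg/ml). They received IL-12 (Tc1) or IL-6 with TGFb (Tc17) for 3 days and IL-2 for 1 more day, and were sorted apart by allelic markers, so WT and STAT3-/- cells had shared their culture. Each group had arrays of biological replicates 1 and 2 and a technical array numbered 2. Which biological sample a technical array repeats is not stated. It was assumed from the shared number to be biological replicate 2 and averaged with it, so the 2 samples per group (8 in all from 12 arrays) rest on that assumption. The values do not bear it out, since biological array 2 differed more from the technical array (SD of 0.209 to 0.352) than from biological array 1 (0.144 to 0.192). Whether replicates came from separate animals or cultures is not stated, so the p-values cover the spread among these samples alone, part of which may be technical.

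A cell licenses its replication origins in G1, when the origin recognition complex, CDC6 and CDT1 load the ring-shaped MCM helicase onto DNA. At the start of S phase CDC45 and GINS turn that ring into a working helicase, DNA polymerase alpha with primase starts each strand, and polymerases delta and epsilon extend them on the PCNA clamp, which replication factor C loads. Many of these genes are transcribed together in late G1 under the E2F factors, which cyclin-dependent kinases set free from the retinoblastoma protein. Activated CD8 T cells divide quickly, and such transcripts are used as a readout of cycling cells.

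Levels below are relative log2 levels, the deposited log2 value minus the median of 9862 tested genes on the same array, so 0 is the level of the middle gene. Levels of different genes depend on their probes and are not set against each other. Stat3, the deleted gene, lay between 2.88 and 3.81 on the 6 WT arrays and between 0.00 and 0.95 on the 6 STAT3-/- arrays. Each array thus matched the genotype in its label, while Stat3 does not check the culture condition or the replicate. The array medians subtracted were 6.68 on the Tc17 WT technical array and 6.86 to 7.01 on the other 11, and that array also stood apart by its median correlation with the others (0.933, against 0.961 to 0.986). All 7 CD8 T cell markers on the arrays were bright (8.53 to 12.1 as deposited). Of 3 CD4 T cell markers, Cd4 was dim (4.57 to 5.83), Cd40lg lower (2.68 to 3.38) and Zbtb7b higher (6.04 to 6.39). Of these T cell markers Cd5 and Cd4 fell in Tc17 STAT3-/- cells, by 0.45 and 0.36 (limma adjusted p of 0.0143 and 0.0290). Epor, the 1 erythroid marker tested, fell by 0.41 (limma adjusted p = 0.0146). The arrays of both Tc17 genotypes overlapped for Cd4 and Epor. Of 5 B cell markers, Cd79a and Pax5 lay between 3.68 and 4.31, near the median of all probe sets (3.95 to 4.10). Ms4a1 lay below that median (2.34 to 2.65). Ighm was bright (9.03 to 11.1 as deposited), and Cd79b lay between 6.44 and 7.62. Ighm and Cd79b were higher in Tc17 STAT3-/- than in Tc17 WT cells, by 1.65 and 0.66 (limma adjusted p of 1.5e-05 and 0.0014). Relative levels of Ighm were 3.44 to 3.73 on the Tc1 arrays, 2.14 to 2.43 in Tc17 WT and 3.80 to 4.11 in Tc17 STAT3-/- cells. Those of Cd79b were -0.45 to -0.12, -0.12 to -0.03 and 0.48 to 0.65. The mean of the 5 B cell markers was -1.70 to -1.37 in Tc17 WT and -1.27 to -1.20 in Tc17 STAT3-/- cells. Of 6 myeloid markers only Cd68 was tested and fell by 1.24 in Tc17 STAT3-/- cells (limma adjusted p = 5.1e-05). The other 5 lay between 2.52 and 4.58 as deposited. Of 4 NK and innate-like T cell markers only Sox13 (4.99 to 5.55 as deposited) was tested. Its Tc17 change of -0.24 did not pass the test (limma adjusted p = 0.300). The part of these markers in the results was not tested.

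The replication genes were lower in Tc17 WT cells than in the other 3 groups. The mean relative log2 level of the 43 genes was 1.14 to 1.18 on the Tc17 WT arrays, 1.42 to 1.44 on the Tc17 STAT3-/- arrays, 1.45 to 1.58 on the Tc1 STAT3-/- arrays and 1.47 to 1.65 on the Tc1 WT arrays. The Tc17 WT arrays were thus the lowest, and the Tc17 STAT3-/- arrays lay just under both Tc1 groups. Taken gene by gene, all 3 Tc17 WT arrays lay below all 9 other arrays for 29 of the 43 genes, against 11.6% of all tested genes. No member had its 3 Tc17 WT arrays above all 9 others (11.1% of all tested genes). In bulk RNA, fewer cells in S phase and less of these transcripts per cell cannot be told apart.

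**Figure D1:**
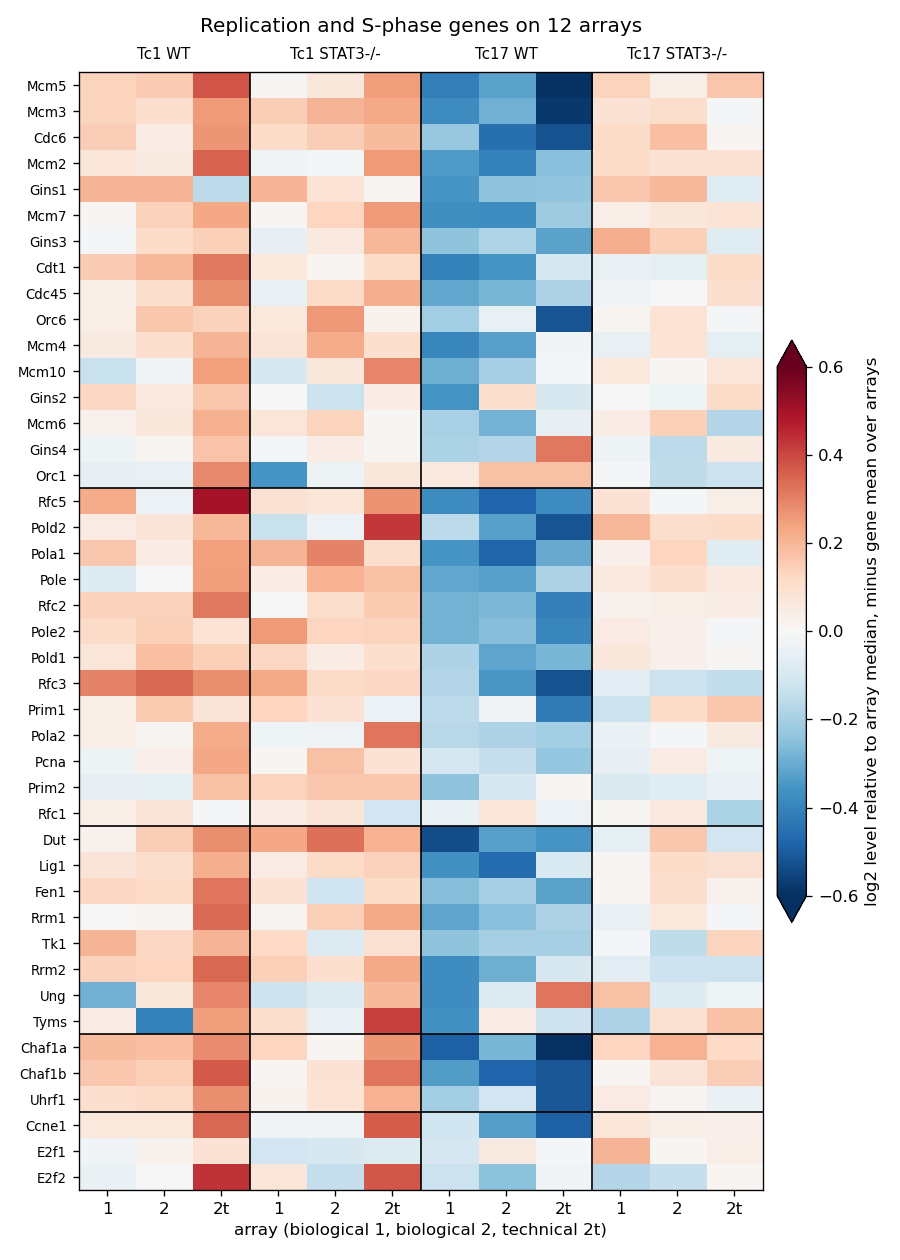
Heat map of the 43 genes (rows, grouped by role) on 12 arrays (columns), as relative log2 level minus the gene's mean over the arrays. The Tc17 WT columns are blue in most rows, while Orc1, E2f1 and Rfc1 do not follow that pattern.

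**Figure D2:**
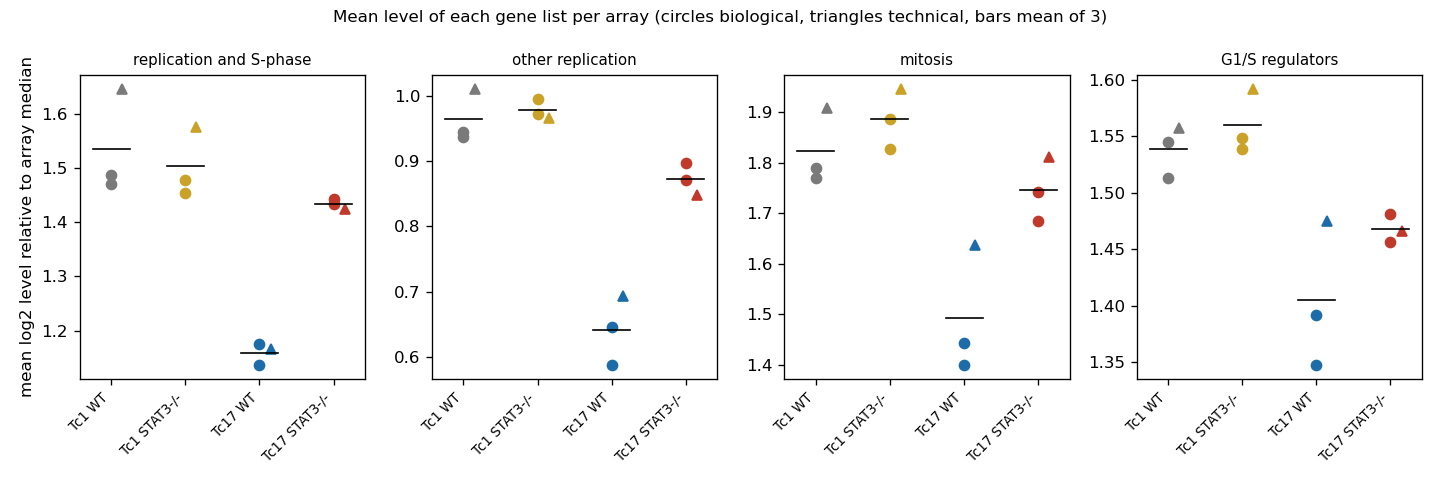
Mean relative log2 level of each gene list per array for the 4 groups, with circles for biological arrays, triangles for technical arrays and a bar for the mean of 3. For the replication and S-phase genes the Tc17 WT arrays sit between 1.14 and 1.18 and the other groups at 1.42 or above.

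In Tc17 cells 20 of the 43 genes were higher without STAT3 and 0 were lower, at an adjusted p under 0.05 in limma with Benjamini-Hochberg adjustment over all tested genes. Over all tested genes 11.0% were called higher and 11.3% lower. The called genes rose by 0.28 to 0.65 on the log2 scale. The estimate was above 0 for 41 of the 43 genes (49.1% of all tested genes), from -0.19 for Orc1 to 0.65 for Chaf1a. The median change was 0.28, against -0.01 over all tested genes. The 3 Tc17 STAT3-/- arrays lay wholly above the 3 Tc17 WT arrays for 30 members and wholly below for 1, against 19.9% and 20.6% of all tested genes. With the technical array averaged with biological array 1 instead, taken as a sample of its own or left out, 21, 20 and 27 members rose. Of all 9862 tested genes 1152, 1040 and 1344 rose in these settings, against 1085 here. Within the technical arrays alone the difference was above 0 for 35 genes (median 0.26), and within the biological arrays for 42 (median 0.29). The count depended on the scaling, since 31 genes rose with the values as deposited, where the median of all genes moved to 0.11 and 72.7% of all calls were higher (49.4% here), and 33 rose with the median of all 22180 genes subtracted (81.2%). It was 8 with no filter on dim genes, where 640 of all 22180 genes were called higher. Leaving out Tc17 STAT3-/- replicate 1 or 2 left 1 sample in that group, and few of the member calls held. The median member change was then 0.30 or 0.27.

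**Figure D3:**
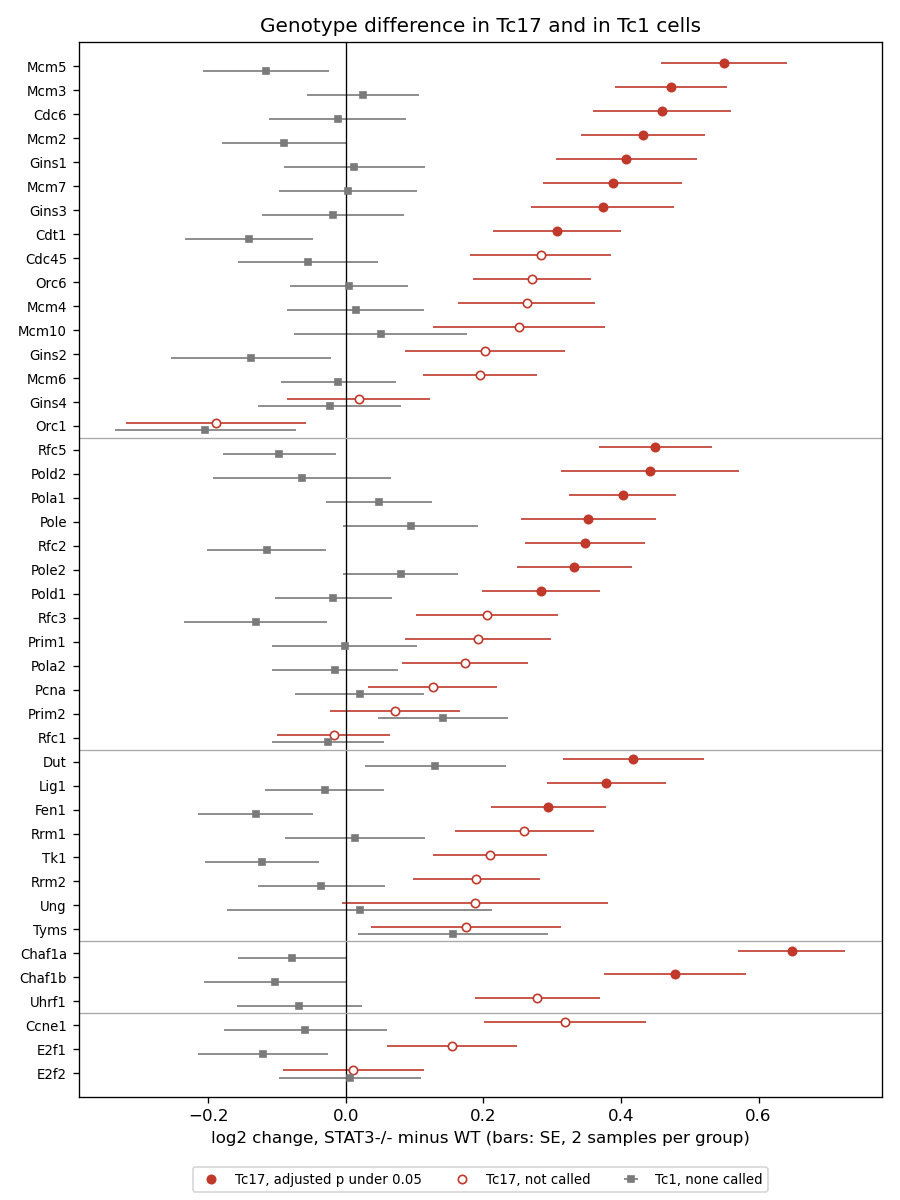
Change from WT to STAT3-/- (log2, with bars of 1 SE, 2 samples per group) for each gene in Tc17 cells (circles, filled where the adjusted p was under 0.05) and in Tc1 cells (squares). The Tc17 changes spread from -0.19 to 0.65, and the Tc1 changes lie between -0.20 and 0.16.

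Because these genes are known as a group regulated through E2F, the letters of E2F sites were searched in their promoters. The windows were the 250 bases before each annotated gene start in RefSeq's table for GRCm38.p6, which held 37 of the 45 genes. Mcm4, Gins1, Gins2, Gins4, Rfc2, Pole, Prim2 and Ccne2 had no entry. The search was for TTTCCCGC, TTTGGCGC, TTTCGCGC and TTTGCCGC on both strands, where matches may overlap. Any of these stood in the window of 9 genes (24.3%), namely Cdc6, Gins3, Mcm5, Mcm6, Mcm7, Orc1, Pola1, Rfc3 and Uhrf1. The share was 2.16% over all 27025 genes of the table and 4.10% over the 7872 tested genes it held. In the related gene lists described below it was 31.8% of G1/S regulators, 17.9% of other replication genes and 3.1% of mitosis genes. By role, the letters stood in 6 of 12 licensing genes, 2 of 11 polymerase and clamp genes, 1 of 3 chromatin genes, 0 of 8 nucleotide and joining genes and 0 of 3 entry genes. CCAAT, the letters of the NF-Y box, stood in 56.8% of the genes (37.5% of all genes and 40.1% of tested genes). It stood in 71.9% of the mitosis genes, 48.7% of the other replication genes and 40.9% of the G1/S regulators. TTTGAA, the letters of the CHR element of mitotic promoters, stood in 16.2%, which lay between the shares of all genes (18.3%) and of tested genes (12.5%). In those lists, in the same order, TTTGAA stood in 34.4%, 12.8% and 18.2%. A match describes the letters only, and a window without one says nothing about the factor.

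Windows of 4 genes are shown, chosen after their values were seen, with the E2F letters in capitals. Mcm5 had the largest Tc17 change among genes with a match and held a pair of overlapping ones, TTTCGCGC and, on the other strand, TTTGGCGC, from 153 to 142 bases before the start. Cdc6 had the next largest and held TTTCCCGC on the other strand, 138 to 131 bases before the start. Orc1 held TTTCGCGC on the other strand, 27 to 20 bases before the start, and was the member with the most negative change. Chaf1a had the largest change of all and no exact match, while its window held gttcccgc, which differs from TTTCCCGC only in the first base. The windows lie on the plus strand of GRCm38.p6 at chr8:75109259-75109508 (Mcm5), chr11:98907901-98908150 (Cdc6), chr4:108579204-108579453 (Orc1) and chr17:56040166-56040415 (Chaf1a), written 5′ to 3′.
Mcm5: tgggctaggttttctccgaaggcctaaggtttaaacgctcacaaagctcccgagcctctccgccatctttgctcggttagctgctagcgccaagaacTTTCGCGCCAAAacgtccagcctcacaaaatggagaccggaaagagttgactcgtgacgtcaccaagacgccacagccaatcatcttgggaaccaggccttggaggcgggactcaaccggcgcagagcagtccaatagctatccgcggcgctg
Cdc6: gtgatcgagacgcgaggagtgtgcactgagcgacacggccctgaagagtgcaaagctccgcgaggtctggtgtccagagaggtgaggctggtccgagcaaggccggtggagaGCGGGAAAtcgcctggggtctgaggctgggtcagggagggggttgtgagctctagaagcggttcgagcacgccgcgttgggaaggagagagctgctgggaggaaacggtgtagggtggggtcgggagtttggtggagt
Orc1: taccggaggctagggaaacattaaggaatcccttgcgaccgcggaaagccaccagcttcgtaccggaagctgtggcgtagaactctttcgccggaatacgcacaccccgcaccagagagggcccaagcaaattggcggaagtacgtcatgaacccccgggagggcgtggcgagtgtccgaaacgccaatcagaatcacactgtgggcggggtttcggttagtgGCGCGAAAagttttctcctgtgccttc
Chaf1a: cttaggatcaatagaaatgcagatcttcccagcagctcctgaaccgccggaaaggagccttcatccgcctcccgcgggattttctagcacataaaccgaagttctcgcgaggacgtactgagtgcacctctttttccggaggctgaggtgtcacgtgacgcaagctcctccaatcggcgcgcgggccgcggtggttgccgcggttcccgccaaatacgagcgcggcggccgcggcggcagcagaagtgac
The median Tc17 change was 0.37 in the 9 genes with E2F letters, from -0.19 to 0.55 with 5 called, and 0.28 in the 27 measured genes without them, from -0.02 to 0.65 with 12 called. The ranges overlapped almost fully.

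Among the 16 licensing and helicase genes, 8 rose in Tc17 cells without STAT3 and 0 fell. Those that rose were Mcm2, Mcm3, Mcm5 and Mcm7 of the helicase ring, the ring loaders Cdc6 and Cdt1, and Gins1 and Gins3 of the GINS complex. Mcm5 changed most. Its relative log2 levels on biological arrays 1 and 2 and the technical array, in that order here and below, were 3.16, 3.17 and 3.40 in Tc1 WT, 3.03, 3.09 and 3.27 in Tc1 STAT3-/-, 2.61, 2.70 and 2.43 in Tc17 WT and 3.15, 3.06 and 3.19 in Tc17 STAT3-/- cells. All 3 Tc17 WT arrays were low, and the other 3 groups overlapped each other. Mcm5 rose by 0.55 ± 0.09 (SE, n = 2 samples per group), or 1.46-fold, in Tc17 cells (limma adjusted p = 0.00355).

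Mcm3, another subunit of the ring, stood at 3.24, 3.20 and 3.36 in Tc1 WT, 3.25, 3.31 and 3.33 in Tc1 STAT3-/-, 2.73, 2.82 and 2.52 in Tc17 WT and 3.19, 3.21 and 3.10 in Tc17 STAT3-/- cells. Again the Tc17 WT arrays were the low ones, and the Tc17 STAT3-/- arrays reached the lower edge of the Tc1 arrays. Mcm3 rose by 0.47 ± 0.08 (limma adjusted p = 0.00404). Cdc6, which brings the ring to the origin, stood at 1.60, 1.50 and 1.72 in Tc1 WT, 1.56, 1.60 and 1.64 in Tc1 STAT3-/-, 1.22, 1.00 and 0.93 in Tc17 WT and 1.56, 1.63 and 1.46 in Tc17 STAT3-/- cells. The Tc17 WT arrays did not overlap with the others, although they differed among themselves. Cdc6 rose by 0.46 ± 0.10 (limma adjusted p = 0.0119), but dropping either replicate of the Tc17 STAT3-/- group ended that call (adjusted p of 0.0817 and 0.0722). Mcm2, also a ring subunit, stood at 2.75, 2.73 and 3.03 in Tc1 WT, 2.65, 2.66 and 2.93 in Tc1 STAT3-/-, 2.33, 2.27 and 2.42 in Tc17 WT and 2.78, 2.76 and 2.76 in Tc17 STAT3-/- cells. The technical arrays of both Tc1 groups were its highest, and the Tc17 WT arrays its lowest. Mcm2 rose by 0.43 ± 0.09 (limma adjusted p = 0.0101), and this call was likewise lost (0.0776 and 0.0653).

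The other 4 that rose changed by 0.31 (Cdt1) to 0.41 (Gins1). Of the 8 that were not called, Cdc45, Orc6, Mcm4, Mcm10, Gins2 and Mcm6 had estimates from 0.20 to 0.28. Gins4 had an estimate of 0.02 with a 95% interval of -0.22 to 0.25. Orc1, the large subunit of the origin recognition complex, went the other way on the arrays, with -0.67, -0.67 and -0.34 in Tc1 WT, -0.98, -0.66 and -0.56 in Tc1 STAT3-/-, -0.57, -0.45 and -0.45 in Tc17 WT and -0.63, -0.78 and -0.75 in Tc17 STAT3-/- cells. Its Tc17 WT arrays lay above its Tc17 STAT3-/- arrays, with a change of -0.19 ± 0.13 (limma adjusted p = 0.342) that did not pass the test. Orc1 was singled out after its values were seen.

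**Figure D4:**
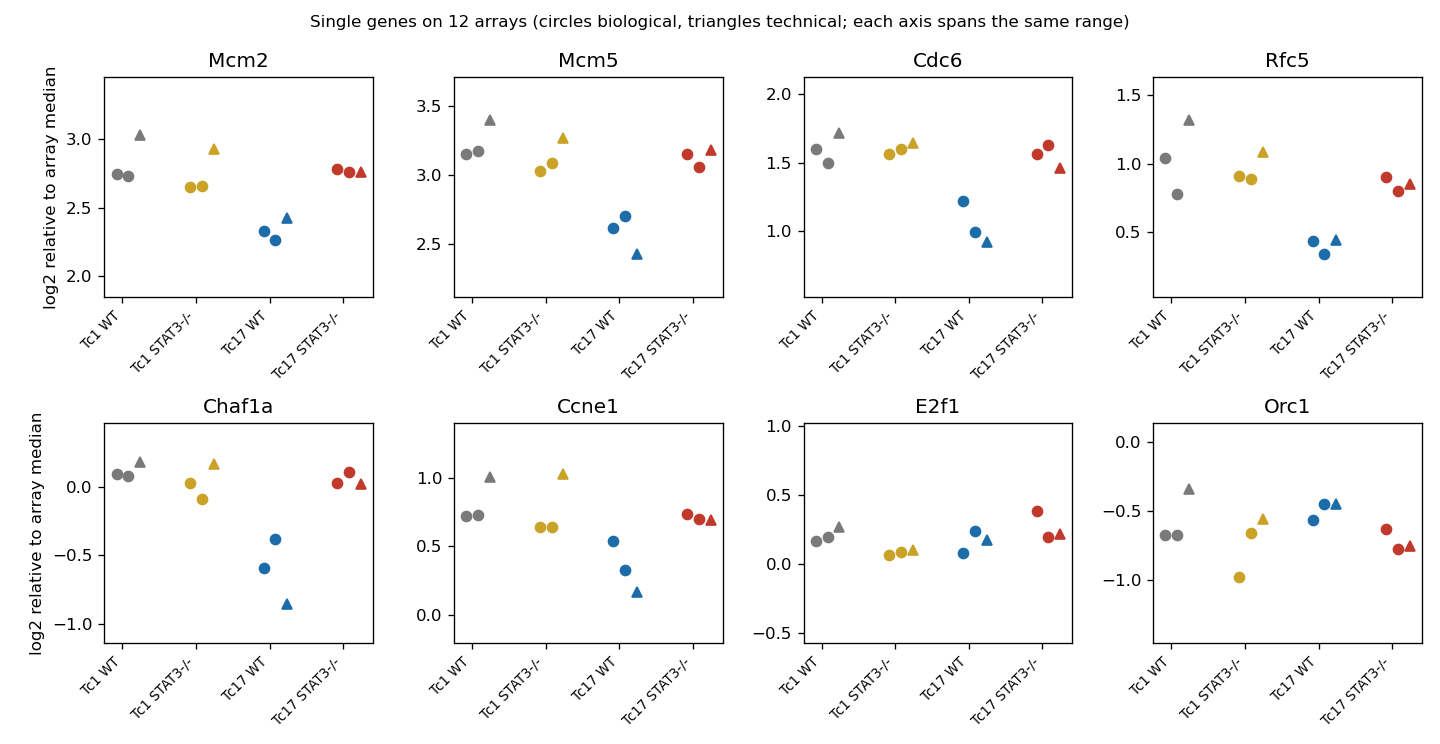
Relative log2 levels of 8 genes on the 12 arrays (circles biological, triangles technical), with every axis spanning the same range. Mcm2, Mcm5, Cdc6, Rfc5 and Chaf1a are lowest on the 3 Tc17 WT arrays, Ccne1 is too with a wider spread, and E2f1 and Orc1 are not.

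Of the 13 genes of the clamp, clamp loader, polymerases and primase, 7 rose in Tc17 cells without STAT3 and 0 fell. They were Rfc5 and Rfc2 of the clamp loader, Pola1, the catalytic subunit of polymerase alpha, Pold1 and Pold2 of polymerase delta, and Pole and Pole2 of polymerase epsilon. Rfc5 was 1.04, 0.78 and 1.32 in Tc1 WT, 0.91, 0.89 and 1.08 in Tc1 STAT3-/-, 0.44, 0.34 and 0.44 in Tc17 WT and 0.90, 0.80 and 0.85 in Tc17 STAT3-/- cells. Its 3 Tc17 WT arrays agreed closely and lay below every other array, while the Tc1 WT arrays were spread widely. Rfc5 rose by 0.45 ± 0.08 (SE), or 1.37-fold (limma adjusted p = 0.00535), and without Tc17 STAT3-/- replicate 1 the adjusted p was 0.0618. Pold2 was 2.08, 2.10 and 2.22 in Tc1 WT, 1.89, 1.99 and 2.45 in Tc1 STAT3-/-, 1.87, 1.70 and 1.51 in Tc17 WT and 2.22, 2.13 and 2.13 in Tc17 STAT3-/- cells. Its Tc17 WT biological array 1 came close to the lowest Tc1 STAT3-/- array. Pold2 rose by 0.44 ± 0.13 (limma adjusted p = 0.0397), but leaving out either Tc17 STAT3-/- replicate, either Tc1 WT replicate or Tc17 WT replicate 2, or using no filter, ended the call (adjusted p from 0.0611 to 0.199). Pola1 was 1.08, 0.97 and 1.17 in Tc1 WT, 1.13, 1.22 and 1.03 in Tc1 STAT3-/-, 0.57, 0.44 and 0.62 in Tc17 WT and 0.95, 1.05 and 0.85 in Tc17 STAT3-/- cells. The Tc17 WT arrays were lowest by a wide margin, and the Tc17 STAT3-/- arrays lay at the low end of the rest. Pola1 rose by 0.40 ± 0.08 (limma adjusted p = 0.00696), and without Tc17 STAT3-/- replicate 1 or 2 the adjusted p was 0.0621 or 0.0601.

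The other polymerase and loader genes that rose changed by 0.28 (Pold1) to 0.35 (Pole). A second, dimmer probe set of Pole changed by 0.16. Rfc3, Prim1, Pola2 and Pcna had estimates between 0.13 and 0.20 that did not pass the test. Pcna, the sliding clamp and a common marker of cycling cells, is shown for that reason, after its values were seen. It was 3.82, 3.88 and 4.09 in Tc1 WT, 3.87, 4.03 and 3.94 in Tc1 STAT3-/-, 3.75, 3.71 and 3.62 in Tc17 WT and 3.80, 3.90 and 3.83 in Tc17 STAT3-/- cells. Its Tc17 WT arrays were still the lowest of the 12, but by little, and its change of 0.13 had an interval of -0.09 to 0.34. Prim2 and Rfc1 had estimates of 0.07 and -0.02.

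Among the 8 genes of nucleotide supply and strand joining, Dut, Lig1 and Fen1 rose in Tc17 cells without STAT3 and 0 fell. Dut, which removes dUTP so that uracil is not built into DNA, measured 1.14, 1.26 and 1.39 in Tc1 WT, 1.34, 1.44 and 1.32 in Tc1 STAT3-/-, 0.58, 0.78 and 0.76 in Tc17 WT and 1.05, 1.27 and 1.00 in Tc17 STAT3-/- cells. All Tc17 WT arrays were below the rest, and the Tc17 STAT3-/- arrays overlapped only with Tc1 WT. Dut rose by 0.42 ± 0.10 (SE; limma adjusted p = 0.0197). Lig1, the ligase that seals Okazaki fragments, measured 2.06, 2.08 and 2.20 in Tc1 WT, 2.03, 2.09 and 2.12 in Tc1 STAT3-/-, 1.62, 1.52 and 1.89 in Tc17 WT and 2.0, 2.09 and 2.07 in Tc17 STAT3-/- cells. The Tc17 WT technical array was nearer to the other groups than the biological ones. Lig1 rose by 0.38 ± 0.09 (limma adjusted p = 0.0146). Fen1, the nuclease that trims those fragments, measured 0.42, 0.41 and 0.62 in Tc1 WT, 0.38, 0.18 and 0.41 in Tc1 STAT3-/-, 0.04, 0.10 and -0.02 in Tc17 WT and 0.31, 0.40 and 0.32 in Tc17 STAT3-/- cells. Its Tc17 WT arrays were the lowest, close to the lowest Tc1 STAT3-/- array. Fen1 rose by 0.29 ± 0.08 (limma adjusted p = 0.0356). Dut and Fen1 each had a second, dimmer probe set with changes of -0.09 and 0.03, and with the mean of both probe sets their changes were 0.17 and 0.16 (adjusted p of 0.251 and 0.297). Without Tc17 STAT3-/- replicate 1 or replicate 2 none of the 3 calls held, with adjusted p from 0.0658 to 0.199, and with no filter on dim genes none held either (0.0566 to 0.109). Dut was also lost without Tc17 WT replicate 1 (0.0689). Fen1 was lost in 9 of 22 settings, among them without either Tc1 WT replicate (0.0558), without Tc17 WT replicate 1 or 2 (0.0635 and 0.0803) and with the technical arrays averaged with biological array 1 (0.0568).

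Rrm1 and Rrm2, the subunits of ribonucleotide reductase, had estimates of 0.26 and 0.19. A second, dimmer probe set of Rrm2 went the other way, at -0.19. Tk1, which salvages thymidine, and Tyms, which makes thymidylate, had 0.21 and 0.17. Ung, which excises uracil, had the widest interval of all members (-0.25 to 0.63). None of these 5 passed the test, which does not show that they did not differ.

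The chromatin assembly genes held the largest change of the set. Chaf1a, the large subunit of chromatin assembly factor 1, which deposits histones on newly copied DNA, had relative levels of 0.09, 0.08 and 0.18 in Tc1 WT, 0.03, -0.09 and 0.16 in Tc1 STAT3-/-, -0.59, -0.38 and -0.85 in Tc17 WT and 0.03, 0.11 and 0.02 in Tc17 STAT3-/- cells. The gap between the Tc17 WT arrays and the rest was plain, and the other 3 groups lay together around the array median. Chaf1a rose by 0.65 ± 0.08 (SE), or 1.57-fold, in Tc17 cells without STAT3 (limma adjusted p = 0.000645). Its partner Chaf1b had 1.89, 1.87 and 2.10 in Tc1 WT, 1.74, 1.81 and 2.05 in Tc1 STAT3-/-, 1.39, 1.25 and 1.22 in Tc17 WT and 1.74, 1.81 and 1.88 in Tc17 STAT3-/- cells. Here too the Tc17 WT arrays lay below all others. Chaf1b rose by 0.48 ± 0.10 (limma adjusted p = 0.0114), with adjusted p of 0.0509 and 0.0933 without Tc17 STAT3-/- replicates 1 and 2 and 0.0508 without Tc17 WT replicate 2. Uhrf1, which brings maintenance methylation to copied DNA, had 2.29, 2.30 and 2.47 in Tc1 WT, 2.21, 2.27 and 2.39 in Tc1 STAT3-/-, 1.98, 2.07 and 1.68 in Tc17 WT and 2.24, 2.20 and 2.15 in Tc17 STAT3-/- cells. Its Tc17 WT arrays lay below the rest, the technical one furthest. The change of 0.28 ± 0.09 did not pass the test here (limma adjusted p = 0.0577) and passed in 5 of 22 settings, among them values as deposited (0.0205) and quantile normalization (0.0390).

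None of the 3 S-phase entry genes was called in Tc17 cells. Ccne1, the cyclin E that drives the G1 to S step, came to 0.72, 0.73 and 1.01 in Tc1 WT, 0.64, 0.64 and 1.03 in Tc1 STAT3-/-, 0.54, 0.33 and 0.17 in Tc17 WT and 0.74, 0.70 and 0.69 in Tc17 STAT3-/- cells. The Tc17 WT arrays were the lowest but far apart from each other, and the change was 0.32 ± 0.12 (SE; limma adjusted p = 0.0879). It was called in 5 of 22 settings, among them with the technical arrays left out, at 0.28 (adjusted p = 0.0401). E2f1, an activator of the replication genes, came to 0.16, 0.20 and 0.27 in Tc1 WT, 0.07, 0.08 and 0.10 in Tc1 STAT3-/-, 0.08, 0.23 and 0.17 in Tc17 WT and 0.38, 0.19 and 0.22 in Tc17 STAT3-/- cells. Its Tc17 groups overlapped, and the change was 0.15 ± 0.09 (limma adjusted p = 0.281), called in 1 of 22 settings, with the all-gene median subtracted (0.0405). E2f2, a second activator, came to 0.51, 0.55 and 0.99 in Tc1 WT, 0.63, 0.41 and 0.92 in Tc1 STAT3-/-, 0.42, 0.30 and 0.53 in Tc17 WT and 0.38, 0.41 and 0.56 in Tc17 STAT3-/- cells. Its technical arrays were highest in both Tc1 groups, all 4 groups overlapped, and the change was 0.01 ± 0.10 with an interval of -0.22 to 0.24.

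In Tc1 cells 0 of the 43 genes were called in either direction without STAT3 in limma. An unadjusted p under 0.05 was found for 0 of the 43 and for 419 of the 9862 tested genes. Over all tested genes 0.0304% were called higher and 0.0608% lower, so few genes of any kind were called there. The estimates ran from -0.20 (Orc1) to 0.16 (Tyms), with a median of -0.02 against 0.00 over all tested genes, and 16 lay above 0 (49.8% of all tested genes). The 95% intervals of the 43 genes lay between -0.50 and 0.47. The Tc1 STAT3-/- arrays lay wholly below the Tc1 WT arrays for 6 genes and wholly above for 0, against 4.08% and 4.79% of all tested genes. The count was 0 under every alternative setting run.

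The difference between the genotype changes in Tc17 and in Tc1 was tested as an interaction. It was called for 4 genes, each with the larger rise in Tc17, and for 0 in the other direction, against 2.75% and 3.76% of all tested genes. Chaf1a changed by 0.65 ± 0.08 (SE) in Tc17 and -0.08 ± 0.08 in Tc1, a difference of 0.73 ± 0.11 (limma adjusted p = 0.00594). For Mcm5 the changes were 0.55 and -0.12, with a difference of 0.67 ± 0.13 (limma adjusted p = 0.0185). For Rfc5 they were 0.45 and -0.10, differing by 0.55 ± 0.12 (adjusted p = 0.0264). For Mcm2 they were 0.43 and -0.09, differing by 0.52 ± 0.13 (adjusted p = 0.0466). The estimate was above 0 for 42 of the 43 genes (50.6% of all tested genes), with Prim2 the exception, and the median was 0.33 against 0.00 over all tested genes. Chaf1b and Mcm3 were just outside the threshold, with differences of 0.58 and 0.45 (adjusted p of 0.0503 and 0.0541). The Chaf1a call held under all 22 alternatives that gave a test, while those of Mcm5, Rfc5 and Mcm2 were lost in 5, 9 and 10 of them. The count was 9 with values as deposited and 12 without the technical arrays, and fell to 1 without Tc1 STAT3-/- replicate 1, without Tc1 WT replicate 2 or without either Tc17 STAT3-/- replicate, and to 2 without Tc1 WT replicate 1.

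Between the culture conditions, WT cells showed the wider difference. In WT cells 26 of the 43 genes were lower under Tc17 than under Tc1 conditions and 0 were higher, against 11.3% and 11.5% of all tested genes. This comparison uses the same Tc17 WT arrays as the genotype comparison above. The called genes fell by 0.34 to 0.71, and the median over the 43 was -0.38 against 0.01 over all tested genes. The estimate was above 0 for 1 member (51.5% of all tested genes). Arrays did not overlap for 33 genes, all lower in Tc17 (19.0% of all tested genes). By role, 10 of 16 licensing genes, 6 of 13 polymerase and clamp genes, 6 of 8 nucleotide and joining genes, all 3 chromatin genes and 1 of 3 entry genes, Ccne1, fell. The largest were Chaf1a, which changed by -0.71 ± 0.08 (SE; limma adjusted p = 0.000384), Mcm5 by -0.63 ± 0.09 (0.00172) and Rfc5 by -0.63 ± 0.08 (0.00102). Rrm2 and Tk1, which did not pass the test between genotypes, fell here by 0.47 and 0.40. The count was 35 with values as deposited, where 28.0% of all calls were higher (50.5% here), and it fell to 17 without Tc1 WT replicate 1 and to 13 without Tc1 WT replicate 2.

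In STAT3-/- cells 0 of the 43 genes were called between Tc17 and Tc1 in limma, against 1.26% of all tested genes higher and 1.27% lower. An unadjusted p under 0.05 was found for 5 of the 43 and for 1206 of the 9862 tested genes, a similar share. The 5 were Rrm2 (-0.25), Rfc3 (-0.28), Dut (-0.27), Prim2 (-0.22) and E2f1 (0.22), named after their values were seen. Estimates ran from -0.28 to 0.22 with a median of -0.05, with 33 of the 43 below 0 and 10 above it (50.5% of all tested genes above). The 95% intervals lay between -0.51 and 0.53, so differences of the size seen in WT cells could be missed for some genes. Tc17 arrays lay wholly below Tc1 arrays for 6 genes and wholly above for 1, against 9.88% and 8.37% of all tested genes. Within the technical arrays 38 genes were lower in Tc17 (median -0.17), and within the biological arrays 27 (median -0.03).

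**Figure D5:**
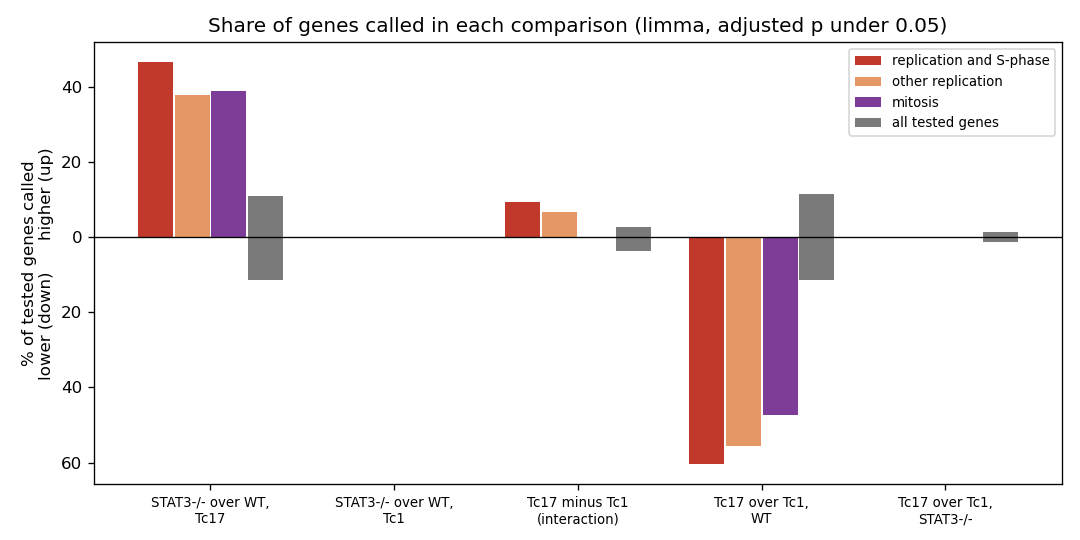
Share of tested genes called higher (above the line) or lower (below it) in each of the 5 comparisons, for 3 gene lists and for all tested genes (limma, adjusted p under 0.05). The lists stand out in STAT3-/- over WT in Tc17 (46.5% of the 43 genes higher) and in Tc17 over Tc1 in WT cells (60.5% lower).

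A wider list of replication genes, of which 45 of 50 were on the arrays and tested, gave 17 higher and 0 lower in Tc17 cells without STAT3 (11.0% and 11.3% of all tested genes), with a median of 0.24. Msh6, a mismatch repair subunit, rose by 0.66 ± 0.10 (SE; limma adjusted p = 0.00274), and Atad5, which unloads the clamp, by 0.61 ± 0.09 (adjusted p = 0.00139). The lowest estimates were -0.10 for Pold4, a small polymerase delta subunit, and -0.08 for Top1, a topoisomerase, and neither passed the test. In WT cells 25 of the 45 were lower under Tc17 than Tc1 conditions and 0 were higher (11.3% and 11.5% of all tested genes). The interaction was called higher for 3 (2.75% of all tested genes), Atad5, Rpa2 (a subunit of the single-strand binding protein) and Dbf4 (the activator of the CDC7 kinase), the last pair named after their values were seen.

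Of 28 tested regulators of the G1 to S step, 7 were higher (25.0%) and 3 lower (10.7%) in Tc17 cells without STAT3, against 11.0% and 11.3% of all tested genes, with a median of 0.07. The share that was lower was thus near that of all tested genes. Cdkn2c, an inhibitor of CDK4 and CDK6, had relative levels of -0.51, -0.50 and -0.34 in Tc1 WT, -0.46, -0.49 and -0.36 in Tc1 STAT3-/-, -1.58, -1.29 and -1.43 in Tc17 WT and -0.51, -0.79 and -0.62 in Tc17 STAT3-/- cells. It was far lower on the Tc17 WT arrays than on any other, and it rose by 0.86 ± 0.11 (SE; limma adjusted p = 0.000661). Cdk2, the kinase partner of cyclin E, rose by 0.53 ± 0.10 (limma adjusted p = 0.00622). Samhd1, which breaks down the nucleotides used for DNA synthesis, was 3.19, 3.22 and 3.15 in Tc1 WT, 3.19, 3.32 and 3.20 in Tc1 STAT3-/-, 3.52, 3.46 and 3.65 in Tc17 WT and 2.91, 3.05 and 2.91 in Tc17 STAT3-/- cells. It was highest on the Tc17 WT arrays and lowest on the Tc17 STAT3-/- arrays, and it changed by -0.59 ± 0.08 (limma adjusted p = 0.00132). Cdkn2d, another inhibitor of CDK4 and CDK6, changed by -0.62 ± 0.13 (limma adjusted p = 0.0109). Cdkn1a, a general inhibitor of cyclin-dependent kinases, was the third that fell, by 0.39, and was named after its value was seen.

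Of 36 tested genes of mitosis, a later cell cycle step, 14 were higher and 0 lower in Tc17 cells without STAT3 (11.0% and 11.3% of all tested genes), with a median of 0.28. Kif4, a chromosome motor, rose by 0.56 ± 0.09 (SE; limma adjusted p = 0.00367), and Bub1b, a checkpoint kinase, by 0.46 ± 0.09 (adjusted p = 0.00806). Pttg1, securin, and Anln, anillin of the cleavage furrow, had the lowest estimates, -0.11 and -0.05, and did not pass the test. In WT cells 17 of the 36 were lower under Tc17 conditions and 0 were higher (11.3% and 11.5% of all tested genes). The interaction was called for 0 in limma (2.75% higher and 3.76% lower over all tested genes). Its unadjusted p was under 0.05 for 9 of the 36 and for 2176 of the 9862 tested genes, a similar share. The mean relative level of the mitosis genes was 1.64 on the Tc17 WT technical array, nearer to the other groups than the 1.40 to 1.44 of the biological arrays.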

How the data were processed

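Total RNA of 12 samples was labelled with biotin and read on Affymetrix arrays, per the labels. The deposited log2 values, 1 for every probe set on each array, were obtained by the authors using RMA and Partek, per the submitters' processing notes, with versions not given in the sources used here. RMA narrows differences near background.

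Of 41345 probe sets, 23521 had 1 gene symbol, 1814 several and 16010 none as used here, and Entrez identifiers of 23328 matched RefSeq (GRCm38.p6), changing 0 symbols. The brightest probe set per gene gave 22180 genes, of which 9862 had a group mean of at least 5 and were tested. Each array's median over these was subtracted. A model of group means over the 8 samples was run in limma 3.58.1 under R 4.3.3 (4 residual and 4.82 prior degrees of freedom, data.table package at version 1.17.8, figures with matplotlib 3.10.9 in Python 3.11.15). Tests were two-sided with a threshold of 0.05 on p-values adjusted by Benjamini-Hochberg across the tested genes, and the fit was checked on simulated data. The number of samples limits the precision. Across tested genes, both biological arrays of a group differed with an SD of 0.144 to 0.192, the technical array differed from biological array 2 with an SD of 0.209 to 0.352, and no arrays were identical.

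Genes named with values on every array were the 3 members of each role with the largest Tc17 genotype change, those called in Tc1 or in the interaction, the 3 with the largest called condition change, and any called against the majority. Orc1 and Pcna were added after their values were seen. From other lists up to 2 genes per direction were named with their changes, and Cdkn2c and Samhd1 among them with array values. The members and lists were chosen with earlier results of these data known. Alternatives were 4 scalings, 4 uses of the technical arrays, the replicate block, 2 filters, probe set means, eBayes options and leaving out each sample. Histone symbols of the old style matched 0 genes, so a list of current symbols was made after the values were seen. Rfc4 and Ccne2 were left out as above.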

Additional observations from a re-analysis of the deposited data

Results flagged for a closer look

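For 7 of the genes named here by rule the genotype change in Tc17 differed from that in Tc1 by limma's interaction test (adjusted p under 0.05). The difference was 0.73 for Chaf1a, 0.67 for Mcm5, 0.55 for Rfc5 and 0.52 for Mcm2. Beyond the 43 genes, it was 0.67 for Atad5 (limma adjusted p = 0.0124, from changes of 0.61 in Tc17 and -0.06 in Tc1). For Cdkn2c it was 0.84 (limma adjusted p = 0.0120, from 0.86 and 0.02). For Samhd1 it was -0.63 (limma adjusted p = 0.0134, from -0.59 and 0.04), the only one of the 7 in that direction. The interaction was also called for Rpa2 and Dbf4, named after their values were seen, and for the markers Cd79b, Ighm and Cd68. With groups of 3 arrays, no outlier test was run.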

How the results depend on the processing

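Members called in Tc17 (20) became 31 with values as deposited, 33 with the all-gene median subtracted and 8 without a filter, and 3 to 18 when 1 sample was left out. The interaction count (4) became 9, 13 and 1 under those 3 settings, 12 without technical arrays, 7 without the Tc17 WT technical array, 7 with 12 arrays and a replicate block of 3 levels, 8 with a filter of 6, 10 with trend and robust options, and 1 to 6 when 1 sample was left out. The WT condition count (26) was 17 without a filter and 13 to 27 when 1 sample was left out. The median Tc17 change (0.28) was 0.40 as deposited, 0.46 with the all-gene median subtracted and 0.27 to 0.32 when 1 sample was left out. Leaving out a sample left 1 in its group, assumed to vary like the others. The 2 remaining counts stayed at 0 in every setting. With the replicate block on 8 samples the counts were 24 in Tc17, 5 for the interaction and 28 for the WT condition. Samples of the same number deviated together with correlations of 0.10 to 0.46, or 0.00 to 0.17 without technical arrays. The highest in each case was between Tc1 WT and Tc1 STAT3-/- cells. Between the Tc17 genotypes it was 0.10, or 0.03 without technical arrays. The labels do not say that a number marks a shared culture, so it was not read as a pairing. Over the 16 named members, 1630 comparisons of a value with its alternative kept their side of the threshold, 72 lost a call, 58 gained one and 0 reversed. The lowest group mean of the members was 6.01 as deposited, above the filter of 5. Whether signal over background limited the members was not tested.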

Other observations

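Replication-dependent histone genes, whose transcripts build up in S phase, were looked at after the values were seen. Of 29 on the arrays 14 were tested, and in Tc17 cells without STAT3 4 were higher and 0 lower in limma (11.0% and 11.3% of all tested genes), with a median of 0.28. The mean relative level of the 14 was 0.67 and 0.96 on the Tc17 WT biological arrays but 1.54 on the technical array. That technical array thus lay above all Tc17 STAT3-/- arrays (1.27 to 1.52). H2bc9 rose by 1.27 ± 0.39 (SE, n = 2 samples per group; limma adjusted p = 0.0484) and H4c9 by 0.68 ± 0.13 (limma adjusted p = 0.00638). H4c12 and H4c17 had the lowest estimates, 0.02 and 0.06, and did not pass the test. H2bc9 was at -2.45, -1.06 and -0.86 on the Tc17 WT arrays and at -0.53, -0.48 and -0.21 on the Tc17 STAT3-/- arrays, so its first Tc17 WT array stood apart. In WT cells 5 of the 14 were lower under Tc17 conditions and 0 higher (11.3% and 11.5% of all tested genes). Copies of these genes are near-identical, so probes may not tell them apart, and no pattern beyond these values is offered.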
